A study of Mus musculus with 6 samples.

Results

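Of the 28752 genes in the deposited table, 48 carry a name of a glutathione S-transferase (GST), UDP-glucuronosyltransferase (UGT) or cytosolic sulfotransferase (SULT), the 3 large enzyme families of phase II conjugation. Members were chosen by name, by a protein-coding transcript and by a summed count of at least 60 over the 6 samples, which left 40 genes: 20 GST, 12 UGT and 8 SULT. RNA sequencing compared 3 samples carrying the vector with 3 samples overexpressing circEZH2_005, a circular RNA from the Ezh2 gene, delivered by adenovirus with 72 h of infection per the labels. All 6 samples were wild type intestinal crypt stem cells per the labels, and the paper calls them intestinal crypt cells. Its methods isolate Lgr5+ intestinal stem cells (ISCs) from Lgr5-GFP mice and grow them as crypt-villus organoids. All 6 samples were exposed to hypoxia/reoxygenation (H/R), with 4 h at 2% O2. Both groups therefore share H/R, and no normoxic group entered the comparison. The labels give neither the age of the mice nor whether samples of a group came from separate animals or cultures, so p-values measure the spread between these samples, which may be technical. Markers of several epithelial cell types were present, and in such bulk RNA fewer cells of a type and less RNA per cell cannot be told apart.

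Phase II enzymes attach a water-soluble group to drugs, dietary compounds, bile pigments, steroids and products of lipid oxidation, so that the conjugate can be exported from the cell. GST enzymes use glutathione, UGT enzymes use UDP-glucuronic acid in the endoplasmic reticulum, and SULT enzymes use the sulfate donor PAPS in the cytosol. The intestinal epithelium is a main site of this first-pass chemistry, and many of these genes are controlled by the xenobiotic receptors Ahr, Nr1i2 and Nr1i3 and by the stress factor Nfe2l2.

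The depth was between 71506487 and 79919893 counts per sample, and the members took between 0.268% and 0.369% of them. Of the markers of crypt stem cells, Lgr5 stood at 15.5 ± 3.19 CPM (counts scaled to library size with TMM factors, mean ± SD, n = 3) in vector samples, against 8.45 ± 0.702 CPM in circEZH2_005 samples, and Olfm4 at 469 FPKM (fragments per kilobase, scaled to library size) over all samples. Markers of mature cells were abundant too: the summed CPM of 12 enterocyte markers was between 16751 and 33521, and that of 6 Paneth markers between 2336 and 6504. The marker sums of fibroblasts and muscle were at most 8.79 CPM, and those of hepatocytes, which also use these enzymes, at most 3.25 CPM. The host gene Ezh2 did not pass the test, with a log2 fold change of -0.13 (standard error, SE, 0.10, adjusted p = 0.511). The oligo(dT) libraries and the gene-level table do not give the level of circEZH2_005 itself, which was not analysed here.

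Every family had members at high level in these samples. On the FPKM scale, which allows levels of different genes to be compared, the mean over the 6 samples ran from 0.153 for Sult4a1 to 192 for Gstp1. The pi class enzyme Gstp1 led the list, followed by the omega class Gsto1 at 149 FPKM, Ugt2b34 at 129 FPKM and the alpha class Gsta1 at 118 FPKM. Next came the mu class Gstm3 at 93.9 FPKM and Sult1b1, which sulfates thyroid hormones and phenols, at 79.6 FPKM. Ugt1a1, the enzyme that conjugates bilirubin, and Ugt1a7c were level at 62.3 and 62.1 FPKM. The kappa, theta and zeta classes were lower, with Gstk1 at 13.2, Gstt1 at 13.6 and Gstz1 at 6.34 FPKM. Sult2b1, a sulfotransferase of cholesterol and other hydroxysteroids, stood at 16.0 FPKM, and Sult6b2 at 46.7 FPKM. In all, 21 members had a mean of at least 10 FPKM and 8 had a mean under 1 FPKM. In 37 of the 38 pairs of neighbours in this order, among the members tested, the ranges over the samples overlapped. The exception was Ugt2b36, from 0.945 to 2.26 FPKM, above Ugt2b38, from 0.377 to 0.809 FPKM.

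**Figure D1:**
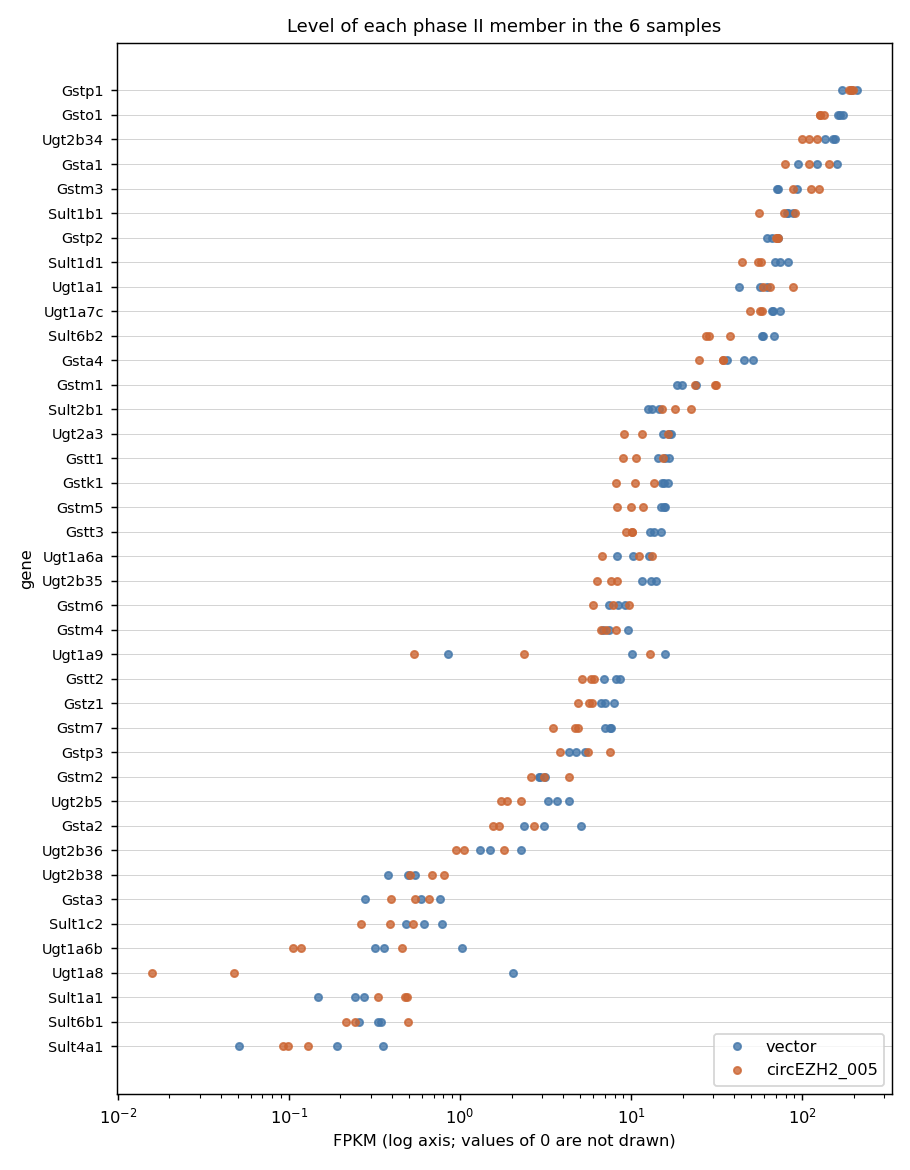
FPKM of the 40 members in each of the 6 samples, on a log axis, ordered by their mean, with vector samples in blue and circEZH2_005 samples in orange. Gstp1, Gsto1, Ugt2b34 and Gsta1 lie at the top, above 100 FPKM on average, and Sult4a1 lies at the bottom with a mean of 0.153 FPKM.

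The limit on summed counts fell in a gap between genes that are close to silent here. Just inside it were Sult4a1 with 195 counts over the 6 samples, Sult1a1 with 258, Sult6b1 with 339 and Ugt1a8 with 398. Just outside it were Gsto2 with 55 counts, Ugt1a2 with 47, Ugt2b1 with 40, Ugt8a with 33, Ugt1a5 with 17, Ugt2b37 with 9 and Sult2a8 with 3. The pseudogene Gstm2-ps1 was left out for lacking a coding transcript. The filter on low counts kept 39 of the 40 members for the test, and Ugt1a8 was the member removed.

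At an adjusted p under 0.05, 2 of the 39 members tested (5.13%) were lower in circEZH2_005 samples, and 0 were higher. Over all 18348 genes tested, 0.986% were lower and 2.69% were higher by the same rule. The members lower were Sult6b2 and Ugt2b35. Without adjustment, 12 members were lower at a p under 0.05 (30.8%), where 9.72% of all genes were, and 4 were higher (10.3%), where 14.0% of all genes were. With a fold change over 2 and an unadjusted p under 0.05, 1 member (Sult1a1) was higher and 0 were lower, beside 6.22% and 1.34% of all genes. The test behind each of these counts was edgeR's quasi-likelihood test. DESeq2, with 28719 genes tested, 39 of them members, called 3 members higher and 8 lower at an adjusted p under 0.05. It also called more genes in all, 1574 higher and 698 lower against 493 and 181.

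The groups did not overlap in 14 members. In 12 of the 39 (30.8%) every circEZH2_005 sample lay below every vector sample, where 14.2% of all genes tested did, and in 2 (5.13%) every circEZH2_005 sample lay above, where 16.4% of all genes did. The median log2 fold change of the members was -0.31, beside 0.00 over all genes, with 25 members below 0 and 14 above. The members selected with a mean of at least 1 FPKM had a median of -0.31, beside -0.01 for all 11602 genes tested at that level. The 12 lower members without overlap were 7 GST, 3 UGT and 2 SULT genes, and each had a mean of at least 1 FPKM. Limma on log2(FPKM + 1) tested 13278 genes, 35 of them members, and moved the median of all genes to -0.07. It called 371 genes higher and 364 lower in place of 493 and 181, and among members 0 higher and 7 lower. These counts are descriptions of the list, since the members were chosen with results of these data known.

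**Figure D2:**
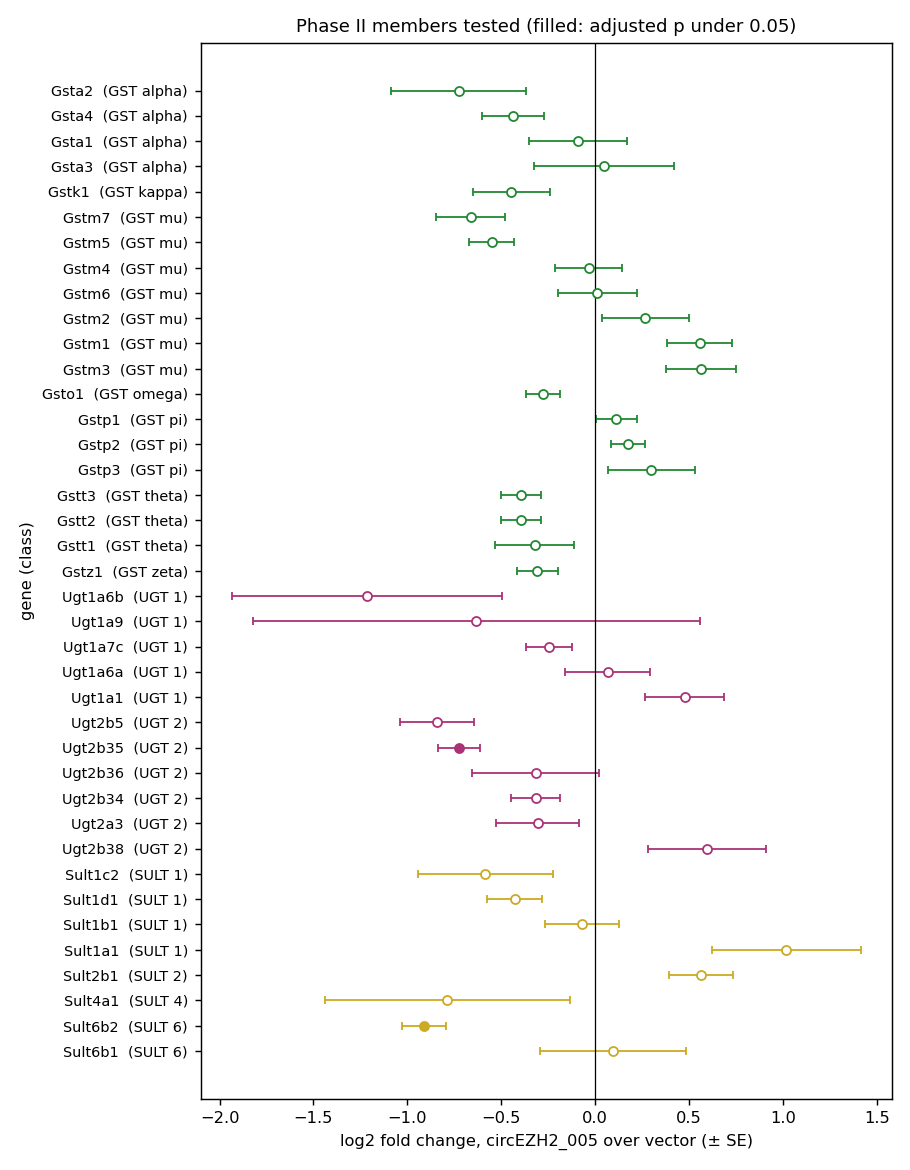
Log2 fold change of circEZH2_005 over vector samples (x axis, ± SE) for the 39 members tested, grouped by class, with GST in green, UGT in purple and SULT in yellow. Filled points mark the members with an adjusted p under 0.05, Sult6b2 at -0.91 and Ugt2b35 at -0.72, and most points lie left of 0.

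Markers of several cell types also differed between the groups. For comparison, 2.69% of all genes tested were higher and 0.986% were lower at an adjusted p under 0.05. Of 8 crypt stem cell markers, 2 were lower at an adjusted p under 0.05, Lgr5 (log2 fold change -0.88) and Smoc2 (-0.81). In 4 of the 8, all circEZH2_005 samples lay below all vector samples, where 14.2% of all genes tested did. The 2 markers with log2 fold changes above 0 were Axin2 and Rnf43, at 0.31 and 0.32, with overlapping groups. The list's summed CPM was between 2047 and 2899 in vector samples and between 1400 and 2036 in circEZH2_005 samples, most of it from Olfm4, whose groups overlapped (adjusted p = 0.314). Of 12 enterocyte markers, 3 were higher and 9 had log2 fold changes above 0, while Fabp1 was at -0.37 (adjusted p = 0.470). The enterocyte sums were between 16751 and 19499 in vector samples and between 17828 and 33521 in circEZH2_005 samples. The Paneth markers, 0 of 6 of which passed the test, summed to between 3760 and 6504 CPM in vector samples and to between 2336 and 4072 CPM in circEZH2_005 samples. Of 12 leukocyte markers, 1 was higher, with sums between 92.9 and 249 in vector samples and between 328 and 570 in circEZH2_005 samples. Of 6 goblet markers 1, Clca1, was higher, while Agr2 was at -0.33 with all circEZH2_005 samples below (adjusted p = 0.110), and 0 of 6 enteroendocrine and 0 of 5 tuft markers tested passed. The part of these shifts in the members' values was not tested.

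Sult6b2 was the member with the smallest p-value, and it was lower in all circEZH2_005 samples. It encodes a cytosolic sulfotransferase and lies on chromosome 6, from 142785204 to 142804502 on the minus strand (GRCm38), where no other gene of GENCODE M21 overlaps it. Its level was 163, 134 and 137 CPM in vector samples 1 to 3 and 87.6, 71.1 and 73.0 CPM in circEZH2_005 samples 1 to 3. The highest circEZH2_005 sample was thus well under the lowest vector sample. The means were 145 ± 15.8 and 77.2 ± 9.07 CPM (SD, n = 3 each), a fold change of 0.533 and a log2 fold change of -0.91 (SE 0.12, adjusted p = 0.0176). The adjusted p was between 0.0175 and 0.0371 with other size factors, without the filter and with the replicate block, and it stayed under 0.05 with DESeq2 and limma. With 1 sample left out it ranged from 0.0069 to 0.0841, and the call was lost without vector sample 1 or 3 and without circEZH2_005 sample 2 or 3. In those 4 fits between 28 and 169 genes were called at all, of between 19086 and 19146 tested. None of its transcript windows of 100 bases occurred in another gene, so its counts do not rest on shared reads of that length. The related Sult6b1, at 0.315 FPKM, had a log2 fold change of 0.09 (SE 0.39).

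Ugt2b35, the other member that passed the test, belongs to the UGT2 family, whose enzymes conjugate steroids, bile acids and drugs. It lies on chromosome 5, from 87000860 to 87013275 on the plus strand. It stood at 51.9, 41.7 and 47.6 CPM in vector samples 1 to 3 and at 29.7, 25.4 and 30.4 CPM in circEZH2_005 samples 1 to 3. The groups were separate, with means of 47.1 ± 5.09 and 28.5 ± 2.72 CPM, and the log2 fold change was -0.72 (SE 0.11, adjusted p = 0.0244). Without the filter on low counts the adjusted p was 0.0510, and with 1 sample left out it ranged from 0.0076 to 0.1219. The call was lost without vector sample 1 or 3 and without circEZH2_005 sample 2 or 3, the same samples as for Sult6b2.

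The promoters of both genes, 250 bases before to 50 bases after the start from RefSeq (GRCm38.p6), are shown because these were the members that passed the test. The Sult6b2 promoter is chr6:142804417-142804716 on the minus strand, and the Ugt2b35 promoter is chr5:87000610-87000909 on the plus strand, both written 5′ to 3′.
Sult6b2: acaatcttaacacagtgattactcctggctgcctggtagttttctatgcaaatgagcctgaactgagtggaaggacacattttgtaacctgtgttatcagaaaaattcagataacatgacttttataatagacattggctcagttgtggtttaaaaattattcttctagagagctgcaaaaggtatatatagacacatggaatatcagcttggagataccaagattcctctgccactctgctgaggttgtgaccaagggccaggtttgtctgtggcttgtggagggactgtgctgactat
Ugt2b35: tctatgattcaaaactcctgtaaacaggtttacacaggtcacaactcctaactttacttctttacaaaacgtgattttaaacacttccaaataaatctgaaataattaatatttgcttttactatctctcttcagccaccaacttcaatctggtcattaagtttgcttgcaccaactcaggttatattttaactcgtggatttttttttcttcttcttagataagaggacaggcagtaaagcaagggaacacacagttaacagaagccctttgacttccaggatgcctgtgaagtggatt
Neither window holds a match, on either strand, to the 3 motifs searched: TGACNNNGC, the core of the antioxidant response element bound by Nfe2l2, GCGTG, the core bound by Ahr with Arnt, and GTTAAT, a half-site of the HNF1 factors. Of 27025 genes with such a promoter, 12.5%, 32.5% and 7.20% hold these motifs. Of the 36 members with a promoter in the table, 2 hold the first (5.56%), 9 the second (25.0%) and 7 the third (19.4%), taking the start listed first where a gene has several. No promoter was listed for Gsta4, Gstt2, Sult4a1 and Ugt1a6b.

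The UGT2 genes lie side by side on chromosome 5 and most had lower values in circEZH2_005 samples, but they are not equally abundant. Ugt2b34 was by far the largest, with 732, 694 and 628 CPM in vector samples, against 463, 633 and 554 CPM in circEZH2_005 samples. Its groups overlapped by a small margin, and its log2 fold change of -0.32 (SE 0.13) did not pass the test (adjusted p = 0.190). Ugt2b5 was much scarcer and its groups were separate, at 8.84, 6.46 and 7.36 CPM against 3.77, 5.05 and 3.81 CPM, with a log2 fold change of -0.84 (SE 0.20) just over the threshold (adjusted p = 0.0580). Ugt2b5 shares 24.7% of its 100-base windows with other genes, chiefly Ugt2b38, so reads may be split between them. Ugt2b36 and Ugt2a3 had log2 fold changes of -0.32 (SE 0.34) and -0.31 (SE 0.22) with overlapping groups. Ugt2b38, at 0.570 FPKM, was the exception in sign, with 0.60 (SE 0.31). When the counts of all Ugt2b genes were summed, the groups did not overlap, at 744 ± 55.9 CPM and 587 ± 84.5 CPM, and the log2 fold change was -0.34 (SE 0.12, adjusted p = 0.149).

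Sult1d1 and Sult1b1 lie near the UGT2 genes on chromosome 5, and 0 of the 4 SULT1 members passed the test. Sult1d1, which sulfates catecholamines and other amines, stood at 223, 194 and 184 CPM in vector samples and at 118, 163 and 166 CPM in circEZH2_005 samples. All 3 vector samples lay above, and the log2 fold change was -0.43 (SE 0.15, adjusted p = 0.132). Sult1b1 stood at 270, 246 and 245 CPM in vector samples and at 167, 303 and 255 CPM in circEZH2_005 samples, which spread on both sides (log2 fold change -0.07, SE 0.20, adjusted p = 0.876). Sult1c2 was near 1 CPM, with a log2 fold change of -0.58 (SE 0.36). Sult1a1, the main sulfotransferase of small phenols in liver, was scarce, with 30, 19 and 36 counts in vector samples, against 65, 65 and 43 in circEZH2_005 samples. The log2 fold change was 1.02 (SE 0.40), the highest of the members tested, at an adjusted p of 0.174. It overlaps Sgf29 on the other strand, so at these low counts reads of the 2 genes may not be told apart.

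Sult2b1 was the other member with all circEZH2_005 samples above all vector samples. It stood at 63.5, 55.7 and 53.3 CPM in vector samples and at 64.6, 106 and 84.4 CPM in circEZH2_005 samples. The margin was narrow, since circEZH2_005 sample 1 was close to vector sample 1, and the log2 fold change was 0.56 (SE 0.17, adjusted p = 0.103). Without circEZH2_005 sample 1 it was 0.73, with an adjusted p of 0.0356. Sult4a1, at 0.153 FPKM, had a log2 fold change of -0.79 (SE 0.65).

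**Figure D3:**
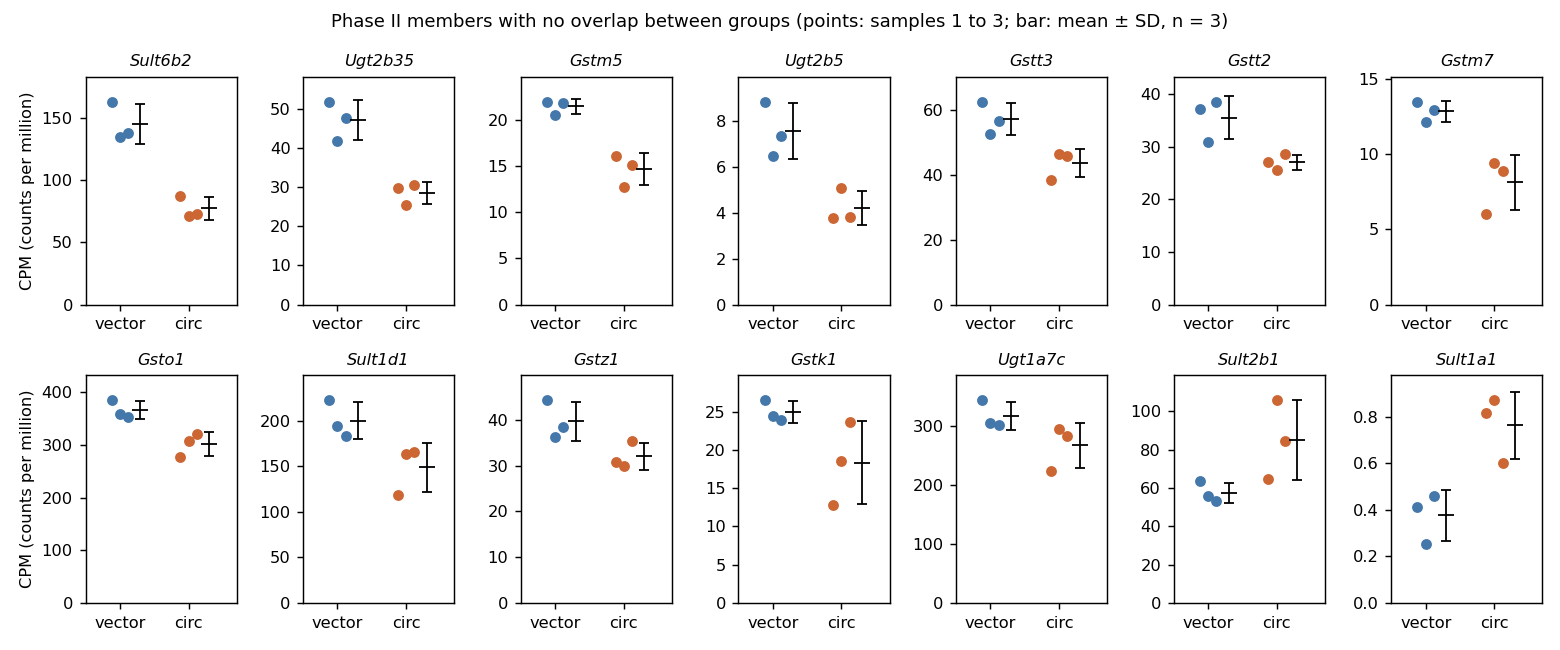
CPM of the 14 members whose groups did not overlap, with vector samples in blue and circEZH2_005 samples (circ) in orange. Each panel starts at 0 and shows samples 1 to 3 from left to right and the mean ± SD. Sult6b2 fell from a mean of 145 to 77.2 CPM, and circEZH2_005 sample 1 was the lowest sample of 7 of the 12 lower members.

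The mu class GST genes form a cluster on chromosome 3, and 0 of its 7 members passed the test. Going from the lowest coordinate up, the log2 fold changes were -0.55 (SE 0.12) for Gstm5, -0.66 (SE 0.19) for Gstm7, 0.01 (SE 0.21) for Gstm6 and 0.56 (SE 0.19) for Gstm3. They went on with 0.27 (SE 0.23) for Gstm2, 0.56 (SE 0.17) for Gstm1 and -0.04 (SE 0.18) for Gstm4. Gstm5, on the plus strand, stood at 22.0, 20.5 and 21.8 CPM in vector samples and at 16.1, 12.7 and 15.1 CPM in circEZH2_005 samples. Its vector samples lay within a narrow band above all others, and the adjusted p was 0.0501, which is just over the threshold and 0.0495 with median-of-ratios size factors. Gstm7 stood at 13.5, 12.1 and 13.0 CPM against 6.02, 9.43 and 8.89 CPM, again without overlap (adjusted p = 0.0849). The more abundant Gstm3 was at 134, 102 and 100 CPM against 125, 196 and 175 CPM, with circEZH2_005 sample 1 inside the vector range (adjusted p = 0.121). Gstm1 showed the same overlap, at 38.9, 29.2 and 31.6 CPM against 37.4, 55.6 and 53.7 CPM (adjusted p = 0.105). Without circEZH2_005 sample 1, Gstm1 and Gstm3 had adjusted p-values of 0.0379 and 0.0492. The summed mu class had a log2 fold change of 0.34 (SE 0.16, adjusted p = 0.258), so its sign follows the abundant genes and not Gstm5 and Gstm7. Gstm3 and Gstm1 share 13.8% and 6.17% of their windows with other genes, and Gstm5 and Gstm7 share none. Gstm5 overlaps a gene on the other strand. Sult2b1, Gsto1, Gstz1, Sult1a1, Gsta3, Sult6b1 and the 6 Ugt1a members do so too, and the sources used here do not say whether counting was strand-specific.

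The Gstm5 promoter is shown since it was the member nearest the threshold and, with Gsta3 and 1 of the listed starts of Gstm7, the place where the antioxidant response element core was found. It is chr3:107895604-107895903 on the plus strand, with matches in capitals.
Gstm5: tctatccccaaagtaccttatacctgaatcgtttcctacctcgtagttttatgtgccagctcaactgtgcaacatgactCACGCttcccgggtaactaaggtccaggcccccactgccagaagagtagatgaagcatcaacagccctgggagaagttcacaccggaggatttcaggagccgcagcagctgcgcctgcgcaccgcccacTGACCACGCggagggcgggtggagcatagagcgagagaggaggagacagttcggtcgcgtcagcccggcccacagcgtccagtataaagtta
The longer run of capitals is TGACNNNGC from 42 bases before the start, and its last 5 bases are also a GCGTG match on the other strand. The shorter run, 171 bases before the start, is another GCGTG match on that strand. A match is a description of letters and not of binding.

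The theta class GST genes on chromosome 10 all had log2 fold changes below 0. Gstt3 stood at 62.7, 52.7 and 56.6 CPM in vector samples and at 38.6, 46.5 and 45.8 CPM in circEZH2_005 samples, with a log2 fold change of -0.39 (SE 0.10, adjusted p = 0.0757). Gstt2 stood at 37.1, 30.9 and 38.6 CPM against 27.0, 25.6 and 28.5 CPM, with the same log2 fold change (SE 0.11, adjusted p = 0.0799). Both genes kept their groups apart, whereas Gstt1 overlapped, at -0.32 (SE 0.21, adjusted p = 0.408). The sum of the 3 genes was 119 ± 9.20 CPM in vector samples, against 91.4 ± 10.8 CPM in circEZH2_005 samples (log2 fold change -0.38, SE 0.11, adjusted p = 0.0910).

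The omega, zeta and kappa classes, each with 1 member, also had all circEZH2_005 samples below all vector samples and did not pass the test. Gsto1, which reduces dehydroascorbate and thiols, was at 386, 360 and 354 CPM in vector samples and at 277, 308 and 321 CPM in circEZH2_005 samples. That is a modest log2 fold change of -0.28 (SE 0.09, adjusted p = 0.116) in one of the most abundant members. Gstz1, an isomerase of tyrosine breakdown, had a log2 fold change of -0.31 (SE 0.11, adjusted p = 0.142), and Gstk1, a mitochondrial and peroxisomal GST, had -0.45 (SE 0.20, adjusted p = 0.237). Gstk1 reached 23.7 CPM in circEZH2_005 sample 3, close to the lowest vector sample at 23.9 CPM.

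The pi and alpha classes held 7 members, of which 0 passed the test. Gstp1 was at 328, 346 and 284 CPM in vector samples and at 314, 369 and 354 CPM in circEZH2_005 samples, with a log2 fold change of 0.11 (SE 0.11, adjusted p = 0.580). Gstp2 and Gstp3 were at 0.18 (SE 0.09) and 0.30 (SE 0.23), and Gstp1 and Gstp2 share 38.4% and 42.2% of their windows with other genes, chiefly each other. Gsta1 varied widely within both groups, at 168, 96.2 and 125 CPM in vector samples and at 112, 164 and 89.2 CPM in circEZH2_005 samples (log2 fold change -0.09, SE 0.26, adjusted p = 0.878). It shares 81.8% of its windows with Gm3776, Gsta2 and Gm10639, and the level of Gsta1 alone is therefore uncertain. Gm3776 had similar counts, 14112, 8007 and 10473 in vector samples, against 10247, 12471 and 6367 in circEZH2_005 samples, and followed the same order of samples. Gsta4, which conjugates the lipid peroxidation product hydroxynonenal, had no shared windows and a log2 fold change of -0.44 (SE 0.17, adjusted p = 0.165) with overlapping groups. Gsta2 and Gsta3 were scarce, at -0.73 (SE 0.36) and 0.05 (SE 0.37).

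The Ugt1a locus on chromosome 1 needs to be read as a whole, since its genes have separate first exons and share the remaining exons. The 8 rows of the locus in the table, 6 of them members, overlap on the plus strand up to about the same end. The members share between 52.8% (Ugt1a7c) and 95.7% (Ugt1a6a) of their windows with other genes, so the authors' counting could move reads between them. Summed over the locus, the counts were 41775, 35797 and 39486 in vector samples, against 33938, 39882 and 41415 in circEZH2_005 samples. The means of 520 ± 50.8 and 514 ± 78.0 CPM lay within the spread of the samples (log2 fold change -0.02, SE 0.13, adjusted p = 0.953). A two-sided exact permutation test of the sum gave p = 1, where 3 samples against 3 cannot go below 0.1.

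Within the locus the largest rows were Ugt1a7c and Ugt1a1. Ugt1a7c took 59.6%, 63.7% and 59.7% of the locus counts in vector samples, against 52.3%, 54.8% and 49.0% in circEZH2_005 samples. Ugt1a1 took 26.5%, 21.2% and 27.0% in vector samples, against 32.9%, 32.1% and 40.1% in circEZH2_005 samples. The shares of both rows were separate between the groups, in opposite directions, a comparison made after the values were seen and not tested. On their own levels, Ugt1a1 had a log2 fold change of 0.48 (SE 0.21, adjusted p = 0.221) and Ugt1a7c of -0.25 (SE 0.12, adjusted p = 0.273), and neither passed the test.

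Of the smaller rows, Ugt1a9, Ugt1a8 and Ugt1a6b varied widely between samples of a group. Ugt1a9 had 2748, 1779 and 158 counts in vector samples, against 101, 2516 and 436 counts in circEZH2_005 samples. The within-group SD of its log2 level was 2.28, against 0.188 for the sum of the locus, so its log2 fold change of -0.63 (SE 1.19) has little precision. Ugt1a8 had 385 counts in vector sample 3, 10 and 3 in circEZH2_005 samples 2 and 3, and 0 in the remaining samples, so that 1 library decided its level. Ugt1a6b had the lowest log2 fold change of the members tested, -1.21 (SE 0.72, adjusted p = 0.357), from 197, 62 and 73 counts against 22, 98 and 24 counts. Ugt1a6a, with a within-group SD of 0.374 close to the 0.335 of Ugt1a1, was at 0.07 (SE 0.23).

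**Figure D4:**
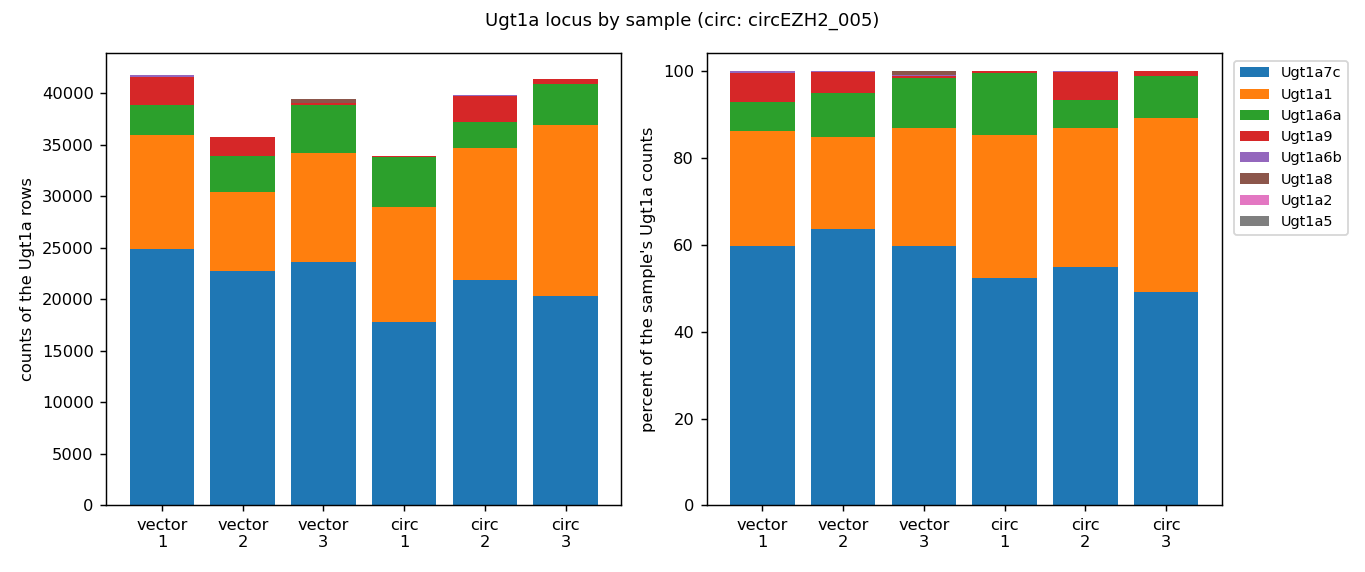
Counts of the 8 Ugt1a rows stacked for each sample (left) and the same counts as a percent of the sample's Ugt1a total (right). The totals of the groups overlap, between 33938 and 41775 counts, while Ugt1a1 (orange) takes 32.1% to 40.1% in circEZH2_005 samples and 21.2% to 27.0% in vector samples.

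The promoters of these leading Ugt1a genes are given to show that their starts are separate although their later exons are shared. They are chr1:88211709-88212008 for Ugt1a1 and chr1:88094751-88095050 for Ugt1a7c, both on the plus strand of GRCm38.p6.
Ugt1a1: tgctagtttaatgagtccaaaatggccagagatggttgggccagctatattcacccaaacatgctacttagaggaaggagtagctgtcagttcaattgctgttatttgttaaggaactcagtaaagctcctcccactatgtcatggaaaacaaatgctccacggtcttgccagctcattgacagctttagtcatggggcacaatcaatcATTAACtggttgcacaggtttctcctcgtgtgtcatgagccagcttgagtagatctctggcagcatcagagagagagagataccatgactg
Ugt1a7c: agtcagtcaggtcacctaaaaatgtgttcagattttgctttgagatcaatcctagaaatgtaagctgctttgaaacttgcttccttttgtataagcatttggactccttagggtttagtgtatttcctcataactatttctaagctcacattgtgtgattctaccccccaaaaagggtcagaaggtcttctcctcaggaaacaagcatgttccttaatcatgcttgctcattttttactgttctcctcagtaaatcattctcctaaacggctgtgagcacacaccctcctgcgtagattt
The capitals in Ugt1a1 are the GTTAAT half-site read on the other strand, 41 bases before the start, and the Ugt1a7c window holds no match to the 3 motifs. Ugt1a6a, Ugt1a9, Ugt2a3, Gsta3, Sult1a1 and Sult1d1 also hold this half-site.

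Across the 6 lists of other genes of the pathway, 57 genes listed and 52 tested, 2 passed the test, both higher: Gclm and Hpgds. By the same rule 2.69% of all genes tested were higher and 0.986% were lower, so 2 of 52 is near the share of all genes. Gclm, the modifier subunit of the enzyme that limits glutathione synthesis, stood at 54.9, 59.4 and 56.6 CPM in vector samples and at 70.0, 83.5 and 76.3 CPM in circEZH2_005 samples (log2 fold change 0.43, SE 0.09, adjusted p = 0.0468). The groups were separate, but the catalytic subunit Gclc had a log2 fold change of -0.21 (SE 0.13, adjusted p = 0.391). Hpgds, the hematopoietic prostaglandin D synthase, which belongs to the sigma class of GST, was scarce, at 1.40 ± 0.154 and 3.99 ± 0.783 CPM (log2 fold change 1.51, SE 0.23, adjusted p = 0.0239). It is known from immune cells, among others, and the leukocyte marker sums given above also stood higher in every circEZH2_005 sample than in any vector sample. The tuft marker sums overlapped, at 29.2 to 35.9 CPM in vector samples and 28.6 to 33.9 CPM in circEZH2_005 samples. The part of any cell type in the value of Hpgds was not tested. With the replicate number as a block, 0 of the listed genes passed. Gclm passed in 2 and Hpgds in 3 of the 6 fits that leave out 1 sample.

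Of the 14 regulators, 0 passed the test, and 9 had log2 fold changes above 0. Nr1i2, the pregnane X receptor, lay above every vector sample in all circEZH2_005 samples, at 96.6 ± 6.87 CPM against 77.5 ± 6.23 CPM (log2 fold change 0.32, SE 0.09, adjusted p = 0.0943). Nr1i3, the constitutive androstane receptor, was at -0.14 (SE 0.18, adjusted p = 0.698), Ahr at -0.12 (SE 0.10, adjusted p = 0.537) and Nfe2l2 at -0.09 (SE 0.09, adjusted p = 0.627). Ahrr, the Ahr repressor, was scarce, with 14, 51 and 44 counts in vector samples, against 220, 124 and 131 counts in circEZH2_005 samples (log2 fold change 2.12, SE 0.47, adjusted p = 0.0551).

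Among the cofactor genes, those of the sulfate donor had the lowest median, -0.15 over 6 genes, with 0 past the threshold. Papss2, which makes PAPS, stood at 1328, 1081 and 1104 CPM in vector samples and at 550, 849 and 741 CPM in circEZH2_005 samples. Its groups were separate by a wide margin, with a log2 fold change of -0.72 (SE 0.17) and an adjusted p of 0.0595. Bpnt1, which clears the product left after sulfation, also had all circEZH2_005 samples below (-0.36, SE 0.13, adjusted p = 0.148), while Papss1 was at 0.18 (SE 0.17). The 4 genes that supply UDP-glucuronic acid had log2 fold changes between -0.12 for Ugdh and 0.14 for Slc35d1, with 0 past the threshold.

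Of the 7 export transporters listed that were tested, 0 passed the threshold, and 6 had log2 fold changes above 0 (median 0.29). The list includes the P-glycoprotein genes Abcb1a and Abcb1b, which are not dedicated to conjugates and had its highest values. Abcb1a, which encodes P-glycoprotein, stood at 102, 75.0 and 93.3 CPM in vector samples and at 194, 272 and 115 CPM in circEZH2_005 samples (log2 fold change 1.11, SE 0.28, adjusted p = 0.0700). Abcc2, a canalicular-type exporter of glucuronides, was at 0.29 (SE 0.22) and Abcc3, on the basolateral side, was the gene below 0, at -0.35 (SE 0.12, adjusted p = 0.141). The others were Abcb1b at 1.03 (SE 0.44), Abcg2 at 0.35 (SE 0.15), Abcc1 at 0.20 (SE 0.17) and Abcc4 at 0.04 (SE 0.24). The microsomal transferases Mgst1 and Mgst3 were at -0.31 (SE 0.11, adjusted p = 0.126) and -0.22 (SE 0.12, adjusted p = 0.312).

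**Figure D5:**
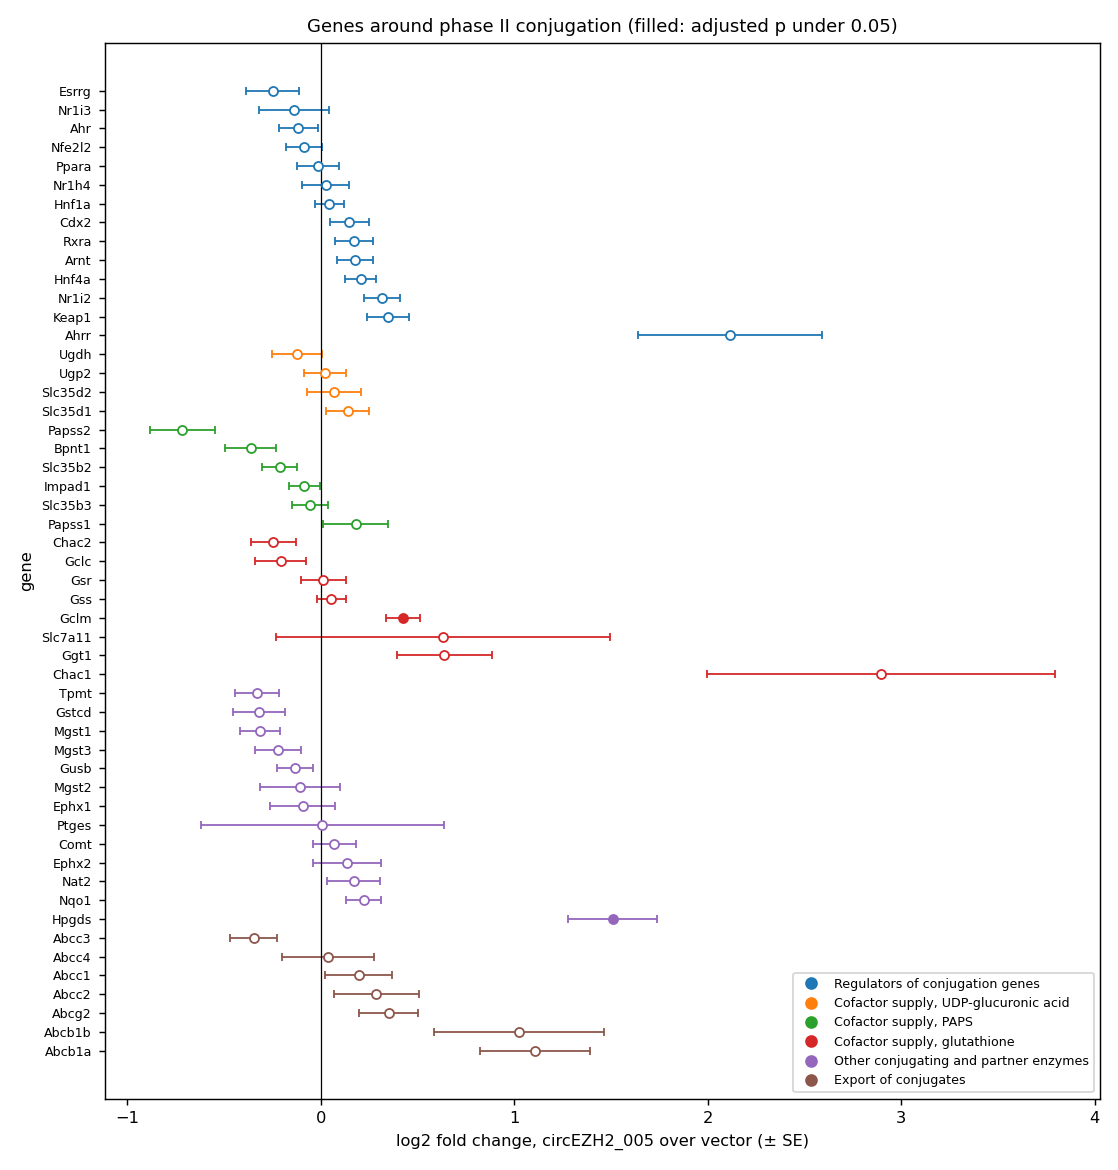
Log2 fold change of circEZH2_005 over vector samples (x axis, ± SE) for the tested genes of the 6 pathway lists, colored by list. The filled points are Gclm at 0.43 and Hpgds at 1.51, and the 4 UDP-glucuronic acid genes lie within 0.14 of 0.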

How the data were processed

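RNA sequencing of 6 samples of mouse intestinal crypt stem cells was deposited as 1 table of genes. Per the submitters' processing notes, tools were cutadapt 1.9, HISAT2 2.0.4, StringTie 1.3.4d and DESeq2, with build mm10. The annotation and use of strand are not given in the sources used here. The authors deposited a raw count and an FPKM value for each gene and sample, and 0 sample columns were left unused. Columns named as a negative control were assigned to vector, since no other control group is labelled.

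Counts were filtered (filterByExpr), scaled with TMM factors (0.931 to 1.04) and tested on 18348 genes by quasi-likelihood (edgeR 4.0.16, R 4.3.3), with Benjamini-Hochberg adjustment over all of them. SE was taken as log2 fold change over the root of the F statistic. Alternatives were DESeq2 1.42.0, limma 3.58.1 on log2(FPKM + 1) for genes averaging 0.5 FPKM or more, other size factors, no filter, a replicate block, a fold rule, near copies summed and each sample left out. Shared sequence was measured as 100-base transcript windows of GENCODE M21 (GRCm38), where 38 of 40 members have the same start and end. Sequences are from RefSeq.

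Members, lists and tests were chosen with earlier results of these data known. Genes named are members past the threshold, the most abundant of each class, those with a log2 fold change beyond 1 and no overlap, and those near the count limit, plus list genes past the threshold and 4 receptors and factors (Nr1i2, Nr1i3, Ahr, Nfe2l2); the others named were chosen after their values were seen. The number of samples, 3 per group, limits precision, as do low counts where counts are few. Intervals of counting error are not given, and counting error was not compared with the spread between samples.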

Additional observations from a re-analysis of the deposited data

How the results depend on the processing

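In place of 2 lower and 0 higher members, DESeq2 called 8 lower and 3 higher, and limma called 7 lower. The fit without the filter called 1 lower, and the fit with median-of-ratios size factors called 3 lower, Gstm5 among them. With near copies summed, 1 was lower, but there all Ugt2b genes formed 1 row, so Ugt2b35 could not be called. That fit therefore does not test the call of Ugt2b35, which shared 0 of its transcript windows with other genes. By the fold rule 1 was higher and 0 were lower. Leaving out 1 sample gave between 0 and 5 lower and between 0 and 3 higher: 5 lower without vector sample 2 (where 1098 genes were higher and 334 lower in all), 3 lower and 3 higher without circEZH2_005 sample 1 (553 and 128), and 0 of either without each of the others, where between 28 and 169 genes were called in all. Of the 2 called members, 0 were kept in all 6 of these fits and 1, Sult6b2, was kept in all 5 other alternatives. Pathway genes called, 2 in the report, were 7 with DESeq2, 5 by the fold rule, 1 without the filter, 1 with limma, 0 with the replicate block and between 0 and 3 with 1 sample left out. The log2 fold change of the Ugt1a sum was between -0.11 and 0.10 with 1 sample left out and changed sign without vector sample 1 (0.06) and without circEZH2_005 sample 1 (0.10), never past the threshold. Likewise Gsta1, between -0.36 and 0.14, changed sign without vector sample 1 (0.14) and circEZH2_005 sample 3 (0.09), and Sult1b1, between -0.26 and 0.14, without circEZH2_005 sample 1 (0.14). The causes were not tested.

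The correlation of deviations between samples of the same number was -0.23, -0.04 and 0.09, so the numbers are not shown to pair the samples. With the replicate block 2 members were lower (Sult6b2, Ugt2b35) and 0 higher, and the Ugt1a sum was at -0.02.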
